A study of Mus musculus with 2 samples.

Results

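A contig is a stretch of one strand of the genome that the submitters listed as covered by RNA reads, here for both libraries together on mouse genome build mm9. The long contigs described here were chosen by length and score from that list: all contigs of at least 5000 bases whose score was 0.1 or lower. There were 2012 of them among 747944 contigs in all, and 299591 shorter contigs met the same score limit. The score has no definition in the sources used here. It was 0 for every long contig and for 24.6% of the shorter ones, and only 2 contigs of this length lay outside the score limit.

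The series is a transcriptome of tissue labelled subcutaneous fat pad from C57BL/6J mice. It holds a single group of 2 libraries, numbered as biological replicates 1 and 2, from adult littermates of 8 weeks, males and females pooled, under a shared donor record. RNA longer than 200 nt was freed of ribosomal RNA, selected for polyA tails, mixed with spike-in RNAs and read as stranded pairs of 76 nt. The health state is given as unknown, and there is no treatment or genotype to compare. Nothing further says how the replicates were separated, so differences between them may be technical. Annotated genes took 53601200 and 57500952 estimated counts in replicates 1 and 2.

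A mature mRNA is made by removing introns from a longer primary transcript and joining the exons. Reads from spliced mRNA therefore cover exons, as separate stretches on the genome, while reads from introns come from RNA that still holds them. Most exons are short, and the longest are usually the last ones, which carry the 3′ untranslated region. A few RNAs, such as the nuclear noncoding RNA Neat1, are long and largely unspliced. White fat stores triglyceride, and its adipocytes express the enzymes of fatty acid synthesis and the proteins of the lipid droplet at high levels.

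Of the 2012 long contigs, 1322 (65.7%) held at least 1 whole intron of a gene identified by the lengths of its introns and exons. The share was 34.9% among contigs of 2000 to 5000 bases and 3.90% among all shorter contigs. It rose with length, on which the long contigs were chosen. In the long contigs these were 6564 introns, which covered 34.6% of their bases. Alternative introns that overlap were each counted, so a count can exceed that of any 1 transcript. The contig of Slc2a4 held 13, where no annotated transcript of the gene has more than 10. Several of these introns carry microRNA genes. By the RefSeq annotation of GRCm38.p6, 27 microRNA hairpins of 24 host genes lay in an intron that a long contig held whole. This count leaves out a chromosome named below, so it is not complete for the genome. The table has 1005 hairpins in all, so the counts are not a share of that total. Mature microRNAs are shorter than the RNA sequenced here and were not measured. What the contigs covered was the host RNA around the hairpins. The following mature sequences, credited to RefSeq, are shown because their introns lie in long contigs of genes the results turn on or, for the last pair, because they share a seed; capitals mark the seed, bases 2 to 8, with which a microRNA recognises its targets.
mmu-miR-27b-3p: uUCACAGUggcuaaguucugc
mmu-miR-24-3p: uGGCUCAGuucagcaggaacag
mmu-miR-23b-5p: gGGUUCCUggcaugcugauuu
mmu-miR-126a-3p: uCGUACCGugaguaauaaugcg
mmu-miR-6921-3p: uGACUACUccuugccucucag
mmu-miR-6922-3p: uGUUCUGCucacccuucucacag
mmu-miR-5125: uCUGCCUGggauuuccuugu
mmu-miR-1943-5p: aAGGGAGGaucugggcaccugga
mmu-miR-6927-3p: cCUGAGCUggcuccccugcag
mmu-miR-6945-3p: uCUGAGCUcugcccuucccau

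The hairpins of miR-23b, miR-27b and miR-24-1 share an intron of 2922 bases of 2010111I01Rik, and the contig that held it ran 7524 bases on chromosome 13 (mm9, chr13:63397225-63404748) at a level of 6.08. The level is the submitters' own signal, proportional to the mean number of reads over each base. The host had 17.5 TPM (a relative transcript abundance, scaled for length) in replicate 1 and 10.6 in replicate 2. The intron of miR-126a, a microRNA of endothelial cells, has 600 bases and lies in Egfl7, a gene for a secreted endothelial protein, whose contig of 11562 bases (mm9, chr2:26440472-26452033) had a level of 22.7. Egfl7 itself had 370 and 656 TPM. Srebf1, which encodes a transcription factor of fatty acid synthesis, carries miR-6921 in an intron of 97 bases and miR-6922 in one of 500 bases, both within a contig of 12242 bases (mm9, chr11:60012581-60024822) at a level of 49.8. Its TPM was 339 and 272. Introns holding these hairpins thus ranged from under 100 bases to several kilobases, the longest of those shown being the 7058 bases around miR-1943 in Tmem184b. The hosts Mllt6 and Pdlim7 carry miR-6927 and miR-6945, whose 3p strands have the same seed. This was the 1 seed shared by mature microRNAs of different names among the 49 found outside chromosome 18. The 27 hairpins and 24 host genes given above were likewise those outside chromosome 18.

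By number the long contigs were 0.667% of the contigs within the score limit. They held 6.55% of the bases of those contigs and 28.5% of their read bases, the sum of read coverage over all positions. Their median length was 6152 bases, with quartiles of 5472.5 and 7390.25 bases. Only 121 reached 10000 bases, 17 reached 15000 and 3 reached 20000. Their median level was 6.39 (quartiles 3.25 and 12.3), against 0.401 (quartiles 0.222 and 1.62) for shorter contigs. In read bases the medians were 856847.5 and 3943, and in mean depth 134 and 8.38 reads per base. Length, level, score and read bases come from the same reads and are not independent measures, so these values describe the selection and were not tested. The level fell from short to middle lengths and then rose: it had a median of 1.72 below 200 bases, 0.271 from 200 to 500, 0.764 from 1000 to 2000, 2.78 from 2000 to 5000, 6.17 from 5000 to 10000 and 9.98 from 10000 bases on. The share holding a gene-paired intron rose over the same classes from 12.0% at 1000 to 2000 bases through 34.9% and 64.5% to 85.1%. The score limit kept 10.6% of contigs below 200 bases and 52.0% of those from 200 to 500. In each longer class it kept at least 98.7%. The levels given for contigs below 500 bases thus describe only the part that passed.

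**Figure D1:**
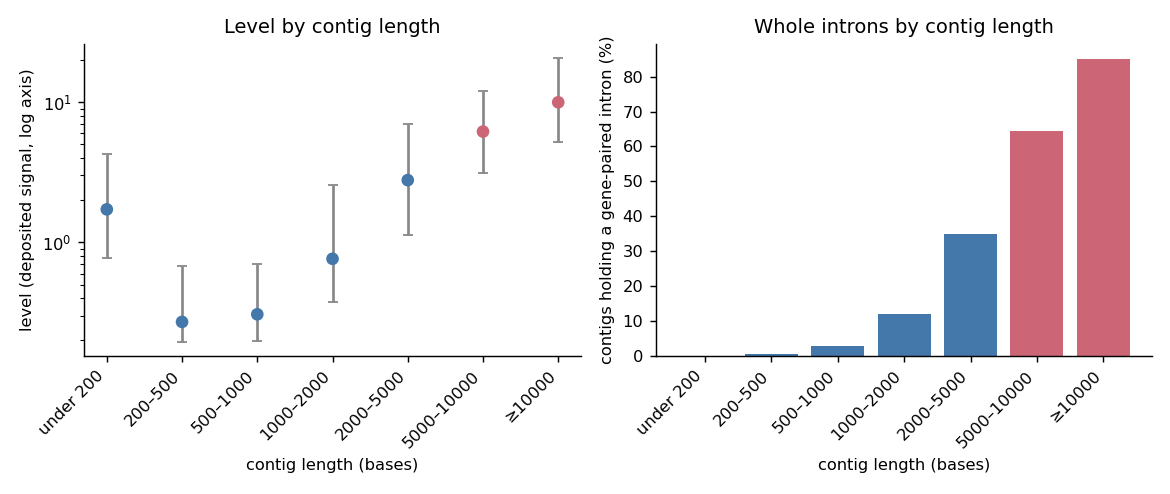
Left, median level of contigs within the score limit by length class (points, log axis) with quartiles (bars); right, the percent of contigs in each class that hold a whole intron paired with a gene. The 2 classes of long contigs (red) have medians of 6.17 and 9.98 and shares of 64.5% and 85.1%, above the 4 classes from 200 to 5000 bases.

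Read bases were concentrated in few contigs. The first 3 held 21.5% of the read bases of all long contigs, the first 10 held 36.8% and the first 100 held 60.0%. The most read bases, 483116843, fell in the contig of Scd1, the desaturase that makes oleate (mm9, chr19:44466333-44482520, 16188 bases, level 1430). It was followed by a mitochondrial contig with 455075508 read bases (positions 1037 to 6939 of chromosome M, plus strand, level 3690) and by the contig of Fasn, the fatty acid synthase, with 304206257 at a level of 685. A contig on chromosome 17 (mm9, chr17:39979936-39985774) had 282968506 read bases and a level of 2320, and was paired with no gene. The contig of Car3, a carbonic anhydrase abundant in adipocytes, had 198166176 at a level of 881. These 5 were the most read, and the second mitochondrial contig (positions 10322 to 16299, level 1350) replaced Fasn among the 5 highest levels. In all, 32 long contigs had a level of at least 100, 636 of at least 10 and 63 a level below 1.

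The lowest levels belonged to contigs of 5056 to 6979 bases. A contig of Tjap1 (5962 bases, level 0.441, 54963 read bases) was lowest, and a contig of Morn1 (6979 bases, level 0.522) was among the 5 lowest. The other three had no junction and no gene: they lay on chromosome 17 (5171 bases, level 0.458), chromosome 6 (5056 bases, level 0.485) and chromosome 9 (5242 bases, level 0.516). Even the lowest of the long contigs thus lay above the median level of shorter contigs. Just inside the length limit were contigs of Hs2st1 and Mprip, both of 5000 bases, at levels of 3.05 and 2.13, and one of 5001 bases on chromosome 19 at 1.76. Just outside were contigs of Zc3h7a (4998 bases, level 1.41), Slc7a10 (4996 bases, level 5.79) and Actr5 (4996 bases, level 0.941). The 2 contigs outside the score limit, of 8432 and 5996 bases on chromosomes 12 and 7, had scores of 0.25 and levels of 1.22 and 1.72.

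Both strands carried long contigs in nearly equal number, 1012 on the plus and 1000 on the minus strand. The plus share was 50.3%, and it was 50.8% among shorter contigs. Chromosomes differed more. Over all of them there were 6.67 long contigs per 1000 contigs within the score limit. Chromosome 7 had 179, or 9.26 per 1000, chromosome 15 had 110, or 9.06 per 1000, and chromosome 11 had 189, or 8.55 per 1000. Chromosome 2 had the most by number, 191. At the other end, chromosome 12 had 41, or 3.37 per 1000, chromosome 14 had 49 (4.31 per 1000), chromosome 18 had 41 (4.37 per 1000) and chromosome X had 33 (4.55 per 1000). On chromosome X the longest was a contig of Flna, the actin crosslinker filamin A, with 11670 bases, 22 paired introns and a level of 147. Chromosome Y had none among its 2 contigs. On chromosome M, 2 of 6 contigs were long, and they held 99.8% of its read bases. The long contigs took 54.9% of the read bases of chromosome 19, which holds Scd1 and Neat1, and 40.5% of those of chromosome 17, but 9.05% of those of chromosome 18.

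**Figure D2:**
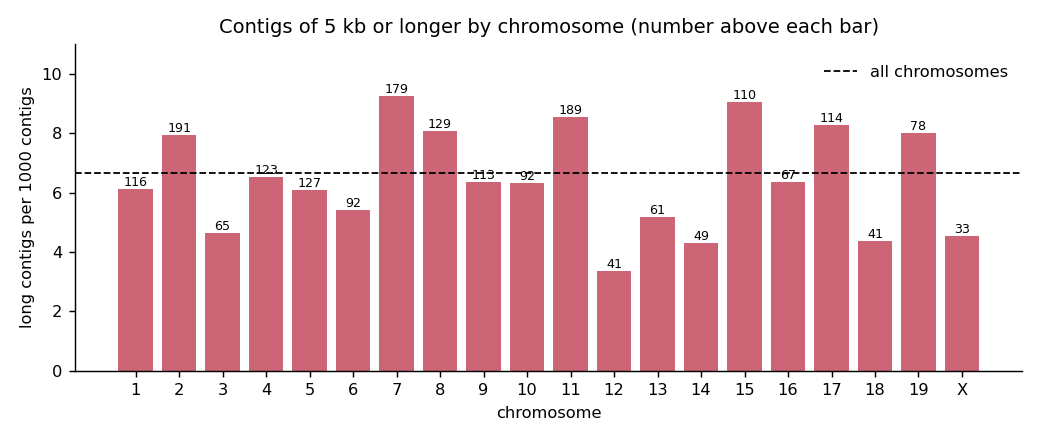
Long contigs per 1000 contigs within the score limit (bars, from 0) on each autosome and chromosome X, with their number above each bar and the value over all chromosomes (6.67) as a dashed line. Chromosomes 7 and 15 are highest at 9.26 and 9.06, and chromosome 12 is lowest at 3.37; chromosomes Y and M, with 2 and 6 contigs, are left out.

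Splice junctions, given by the submitters in a second list, sorted the long contigs into kinds. Counting every junction of at least 10 reads and a score of 0.1 or lower, 1397 (69.4%) held a whole intron, 340 (16.9%) only received junctions from upstream, 26 only sent them downstream, 83 did both without holding an intron, and 166 (8.25%) had no junction end at all. Among shorter contigs 4.24% held a whole intron and 63.8% had no junction end. The count of whole introns includes rare junctions in very deeply read contigs. In Scd1, 49 such junctions lay inside the contig, while 6 introns were paired with the gene, and the mitochondrial contigs had 11 and 5 such junctions and no paired intron. Except where any counted junction is named, values for introns below are therefore of paired introns. In the 1322 contigs that had one, the median number was 4, and introns made up a median of 52.7% of the contig. There were 709 contigs in which they made up more than 50% of the bases. In the 1397 contigs with a whole intron by any counted junction, the most-read junction had a median of 3.15 times the contig's mean depth. Splicing was therefore read there as well.

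The longest contig was that of Neat1 (ENSMUSG00000092274.3), the RNA around which paraspeckles form in the nucleus. It covered 22088 bases on the minus strand (mm9, chr19:5823856-5845943) at a level of 49.9, and only 1.40% of it was paired intron. The longest annotated exon of Neat1, which spans the gene, has 20771 bases, so the contig and this exon were of similar length. Neat1 had 369 TPM in replicate 1 and 1043 in replicate 2. Carmn, a long noncoding RNA of smooth muscle, came next with 21994 bases at a level of 13 (mm9, chr18:61803213-61825206), of which 67.6% was intron. Its TPM was 40.3 and 8.07. These 2 noncoding RNAs differed in kind, one mostly exon and the other mostly intron.

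Fasn (ENSMUSG00000025153.9) was the third, with 21236 bases on the minus strand (mm9, chr11:120664825-120686060). Its 42 paired introns match the number in the annotated Fasn transcript with most introns, and they took 40.7% of the contig. The contig was 114% as long as the annotated gene. Fasn had 6184 TPM in replicate 1 and 11093 in replicate 2. Next came Tmem184b, a membrane protein gene (19644 bases, level 10.1, 8 introns), and Ppp1r12c, a regulatory subunit of a myosin phosphatase (19169 bases, level 4.88, 21 of at most 21 introns). Ppp1r12c had 122 and 51.5 TPM, far below Fasn, and its contig still held as many introns as its annotated transcript with most introns. Shank3, a scaffold protein best known at synapses, had a contig of 17636 bases. Klc1, a kinesin light chain, had one of 17515 bases, of which 94.9% was intron. Ap3d1, a subunit of a vesicle adaptor complex, had one of 17491 bases with 24 introns. A contig of 16592 bases on chromosome 16 (mm9, chr16:43619931-43636522, plus strand, level 5.23) was among the 10 longest without any junction end or gene.

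The contigs that only received junctions were closer in length to annotated last exons than contigs with a whole intron were. Of the 340, 285 were paired with exactly 1 gene. The longest annotated last exon of that gene was a median of 4939 bases, or 86.0% of the contig. In 124 of them (43.5%) it was at least 90% of the contig, which includes last exons longer than the contig. In 128 the contig was over 1000 bases longer than the last exon. Another 1314 contigs of 1 gene held a whole intron by any counted junction. There the last exon had a median of 1792.5 bases, 25.9% of the contig. Taok1, a protein kinase, had a contig of 9249 bases and a last exon of 9167. Adcy1, an adenylyl cyclase, had 9092 and 9094 bases, and Zfp652, a zinc finger protein, had 9354 and 8815. Ccnd2, cyclin D2, had 5805 and 5326. Not all were like this: in 57 (20%) the last exon was under 50% of the contig. Arv1, a gene of sterol transport, had the longest contig of this kind, 12830 bases, and a last exon of 632. Slc25a10, the mitochondrial dicarboxylate carrier, had 9959 and 1117 bases. For Lpl, the lipoprotein lipase that releases fatty acids from circulating triglyceride, the contig ran 8849 bases (mm9, chr8:71429492-71438340, level 82.4), against a last exon of 3954. What lay beyond these annotated ends was not analysed here.

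Contigs of the other strand overlapped 611 of the long contigs (30.4%), against 7.34% of all shorter contigs and 13.1% of those from 1000 to 5000 bases. A longer contig has more bases where an overlap can fall, and the long contigs were chosen by length. No rate per base was computed, so these shares do not show more overlap for a given length. The overlap was usually small: it covered a median of 9.73% of the long contig, and the level on the other strand was a median of 11.4% of the long contig's own. In 62 contigs (3.08%) it covered at least 50%, and in 86 the other strand had the higher level. In 21 places 2 long contigs lay against each other on opposite strands. Cmtr1, which methylates the mRNA cap, and Ccdc167 shared 8099 bases at levels of 5.99 and 1.61. Egfl7 and Agpat2, an acyltransferase of triglyceride synthesis, shared 6845 bases at levels of 22.7 and 65.3. Cdc37l1 and Ak3, an adenylate kinase of mitochondria, shared 6254 bases at levels of 2.67 and 16.9. Long contigs also had close neighbours on their own strand, a median of 61 bases away against 260 for shorter contigs. For 1197 of them (59.5%) the next contig was within 100 bases.

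Genes were paired with contigs through lengths alone, because the contigs are on mm9 and the annotation on GRCm38: at least 2 introns in a row and the exon between them had to match in length 1 gene of the same chromosome and strand. In this way 1731 long contigs (86.0%) were paired with 1648 genes, 39 of them with more than 1 gene. The 281 others had a median level of 2.54, against 7.10 for paired contigs, and 166 of them had no junction. A gene with fewer than 2 introns could not be paired. Of the 1648 genes, 1622 (98.4%) are annotated as protein coding. The gene tables held 1641, of which 1626 reached 1 TPM in both replicates, with a median mean TPM of 43.7. The 10174 genes paired only with shorter contigs had a median of 14.0 TPM. The most abundant genes with long contigs, by mean TPM, were Car3, Fasn, Scd1, Sparc, Fabp4, Gsn, Lpl, Cidec, Ctsd and Aldoa. Car3 had 4632 TPM in replicate 1 and 17736 in replicate 2. Gsn, the actin-severing protein gelsolin, had 1997 and 5964 TPM and 2 contigs of 10000 and 8869 bases. Cidec, which enlarges lipid droplets, had 1123 and 4634 TPM and a contig of 8690 bases at a level of 133. Ctsd, a lysosomal protease, had 2194 and 3168 TPM and a contig of 10660 bases at a level of 287. Aldoa, a glycolytic enzyme, had 1900 and 3446 TPM, and its contig of 7852 bases was paired with a pair of annotated genes of this symbol.

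Few of the genes with long contigs have an exon of that length in the annotation. At least 1 exon of 5000 bases or more is annotated for 233 of the genes (14.1%), against 544 (5.35%) of the genes reached only by shorter contigs. For 1577 genes the longest contig was longer than any annotated exon. Genes whose longest contig held an intron had a median longest exon of 1872.5 bases, an annotated span of 19675 bases and 53.7 TPM, over the 1262 compared between replicates. The 376 genes without one had a longer exon (median 4575 bases), a wider span (48794.5 bases) and a lower abundance (19.9 TPM), and 40.7% of them have an exon of at least 5000 bases against 6.34%. In 185 genes (11.2%) a single long contig was at least 90% as long as the annotated gene. Among them were Fasn, Ppp1r12c, Scd1, Car3, Fabp4, Pnpla2, Plin4, Slc2a4 and Col1a1.

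**Figure D3:**
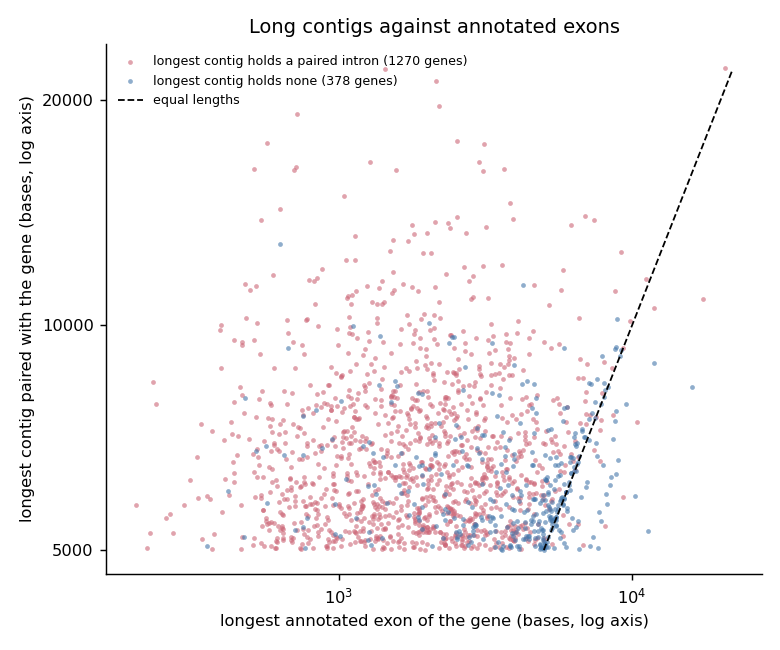
Each point is a gene paired with a long contig, placed by its longest annotated exon (x) and its longest contig (y), both in bases on log axes; the dashed line marks equal lengths. The 378 genes whose longest contig holds no paired intron (blue) have a median longest exon of 4563 bases, and 14.0% of them lie on the line or to its right. Of the 1270 with an intron (red), whose median is 1870.5 bases, 1.42% do.

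More than 1 long contig was paired with each of 114 genes. Tns1, a protein of focal adhesions, had 5, together 36805 bases. They were on chromosome 1 and their levels were 56.6, 34.6, 4.53, 6.06 and 21.7 from the lowest to the highest position, which for this minus-strand gene runs from the 3′ end upstream. The pair of contigs with the lowest levels were the longest of the 5 and held introns over 85.5% and 52.3% of their bases. Col6a2, a chain of collagen VI, had 2 contigs of 13711 and 12017 bases with 5 and 20 introns, at levels of 102 and 58.5. Mgrn1, a ubiquitin ligase, had 3 with 24382 bases together, Mfng, a glycosyltransferase that modifies Notch, 3 with 21860, and Phldb1 3 with 21410. The Mfng contigs exceed its annotated span of 17594 bases, so part of them lies outside the annotated gene. Rbpms, an RNA-binding protein, had 2 with 22043.

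Of all 11822 genes that contigs of any length reached, 13.9% had a long contig, and the counts of listed genes below are read beside this share, without a test and on lists written with earlier results known. Of 19 adipocyte genes, all of them reached, 11 had a long contig. Beside Fasn, Scd1 and Lpl these were Acly, which makes cytosolic acetyl-CoA, Acacb, an acetyl-CoA carboxylase, Lpin1, a phosphatidate phosphatase, Acsl1, which activates fatty acids, Pnpla2, the main triglyceride lipase, Plin4, a lipid droplet coat protein, Slc2a4, the insulin-responsive glucose transporter, and the transcription factor Foxo3. Scd1 had a contig 121% as long as its annotated span, Car3 119% and Pnpla2 102%. Pnpla2 had 1073 TPM in replicate 1 and 2462 in replicate 2. Of 7 adipocyte markers 6 had one: Adipoq, Lep, Plin1, Fabp4, Car3 and Lpl. Adipoq, which encodes adiponectin, had a contig of 6282 bases at a level of 242, and Fabp4, a fatty acid carrier, one of 5341 bases at 411.

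Of 15 matrix genes, all of them reached, 9 had a long contig. In Col1a1, the first chain of collagen I, it was 96.0% as long as the annotated gene and held 49 introns, the most of any long contig, where the annotation has at most 50 (mm9, chr11:94798221-94814360, 16140 bases, level 76.8). Col1a2, the other chain, had a contig of 9826 bases with 14 introns at a level of 60.7. Fn1, fibronectin, had one of 9300 bases of which 86.3% was intron, and Hspg2, perlecan, one of 7028 bases with 15 introns. Vcan, versican, had one of 5561 bases without an intron, and its longest annotated exon has 5217. The others were Col5a1, Col6a3, Tnxb and Sparc.

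Of 30 genes with a very long coding exon, 19 were reached by a contig of any length and 8 had a long contig: Ahnak, Plec, Dst, Map1a, Zfhx3, Srrm2, Ankrd11 and Tacc2. Ahnak, a giant scaffold protein, has an annotated exon of 17498 bases, yet its contig had 10851. For Plec, the cytolinker plectin, the contig of 13846 bases outran the longest exon of 7412 and held 7 introns. Srrm2, a splicing factor of nuclear speckles, had a contig of 10225 bases at a level of 83.8 with an exon of 6569. Of 11 RNA-binding and mRNA decay factors listed for long last exons, all reached, 3 had one: Tnrc6a, Qk and Ago2. The Ago2 contig, of the protein that carries microRNAs, ran 11523 bases and its longest exon 11173. Of 18 receptors and ligands listed for long last exons, 16 were reached and 6 had one, namely Il6st, Ghr, Lifr, Bmpr2, Lrp1 and Lrp6. Both of these lists, and that of long coding exons, were picked by exon length. Contigs were chosen by length, so these counts cannot be read as a trait of the gene groups. Il6st, the shared receptor of interleukin 6 cytokines, and Bmpr2, a BMP receptor, had contigs of 6937 and 7675 bases and last exons of 6382 and 8780. Of 11 long noncoding RNAs found, 7 were reached and 3 had one. Beside Neat1 these were Snhg11 (5678 bases, level 9.80) and Xist, the RNA that coats the inactive X chromosome, with contigs of 7841 and 6754 bases at levels of 38.1 and 24.8. Among markers of other cells, 2 of 4 of smooth muscle (Acta2, Myh11) and 1 of 3 of endothelium (Cdh5) had a long contig, and 0 of 5 of epithelium and 0 of 4 of macrophages did. A gene of these lists without a long contig may still be expressed.

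Since the contigs pool the libraries, the replicates can be compared only through the gene tables. After scaling with TMM factors, a gene needed a mean of 100 or more scaled counts to be called, and the exact 95% interval of its ratio had to lie wholly beyond 2-fold. Each side is 1 library, so there was no replicate check, and the intervals cover counting error only. Of 1638 genes with long contigs, 243 (14.8%) were over 2-fold higher in replicate 2, against 10.6% of all genes tested, and 102 (6.23%) were over 2-fold higher in replicate 1, against 12.5%. This split depended on the scaling. With total counts instead of TMM, which lowers every log2 ratio by 0.51 (a shift of -0.51), the counts were 110 in replicate 2 and 219 in replicate 1, where 4.40% and 22.3% of all genes passed. The median log2 ratio of replicate 2 over replicate 1 was 0.16 for genes with long contigs and 0.04 for all genes. With total counts the former was -0.35. Under both scalings the share higher in replicate 2 was above that of all genes and the share higher in replicate 1 below it. In tissue samples, fewer cells of a type and less RNA per cell cannot be told apart.

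Most genes of fat cells lay on the side of replicate 2. All 6 adipocyte markers with a long contig were over 2-fold higher there under both scalings, and 7 of the 11 adipocyte genes were with TMM and 3 with total counts. Foxo3, at a ratio of 0.651 (0.622 to 0.680), was called higher in replicate 1 with total counts only. The adipocyte genes had a median log2 ratio of 1.32, or 0.81 with total counts. Lpl, in both lists, had 1175 TPM in replicate 1 and 5362 in replicate 2, a scaled ratio of 7.19 (7.14 to 7.24). Fabp4 had 1890 and 6723 TPM, a ratio of 5.91 (5.86 to 5.97). Fasn, at a ratio of 1.97 (1.97 to 1.98), stayed within 2-fold, and Acly, at 1.09 (1.08 to 1.10), was nearly level. Scd1 was called at 2.50 (2.50 to 2.51) but was at 1.75 with total counts.

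Smooth muscle markers and 4 of 9 matrix genes lay on the other side. Acta2, smooth muscle actin, had 3567 TPM in replicate 1 and 428 in replicate 2, a ratio of 0.187 (0.185 to 0.190), and Myh11, smooth muscle myosin, had 190 and 14.5, a ratio of 0.119 (0.116 to 0.123). Both were called under both scalings. Of the matrix genes, Col1a1, Col1a2, Col6a3 and Vcan were over 2-fold higher in replicate 1, and Sparc, with 3908 and 8089 TPM, was over 2-fold higher in replicate 2. Total counts added Fn1 to the first. Markers of other cells moved as well, most of them without a long contig. All 5 epithelial markers were called higher in replicate 1 under both scalings, with a summed level of 629 TPM in replicate 1 and 13.5 in replicate 2. Krt8, a keratin of simple epithelia, had 169 and 1.87 TPM and Epcam, an epithelial adhesion protein, 35.6 and 0.09. All 4 smooth muscle markers were called in the same direction under both scalings, with summed levels of 4984 and 597 TPM. The 7 adipocyte markers summed to 21910 and 52148 TPM, and all 7 were called higher in replicate 2 with TMM and 6 with total counts. Of 3 endothelial markers, with sums of 220 and 362 TPM, Pecam1 and Cdh5 were called higher in replicate 2 with TMM and none with total counts. Of 4 macrophage markers, with sums of 570 and 360 TPM, none was called. The part of cell makeup in the differences between the replicates was not tested.

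**Figure D4:**
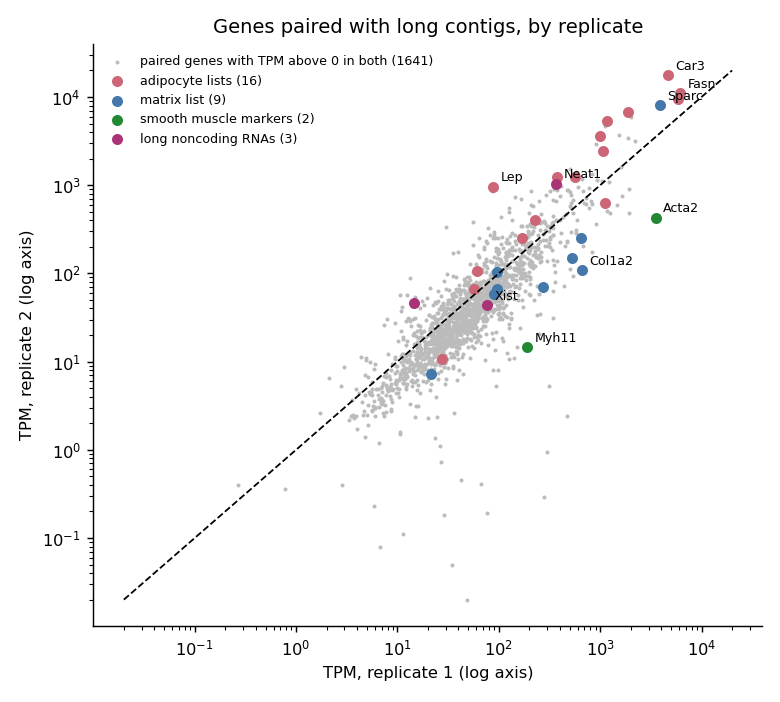
TPM of the 1641 genes paired with long contigs in replicate 1 (x) and replicate 2 (y), both on log axes, with equality as a dashed line and listed genes in colour. The 16 genes of the adipocyte lists (red) mostly lie above the line, the 2 smooth muscle markers and most matrix genes below it, and a few points with over 10 TPM in replicate 1 fall below 1 TPM in replicate 2.

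The most unequal genes came from opposite directions. In 15 paired genes the TPM was below 1 in replicate 2, and in 2 it was below 1 in replicate 1. The median TPM of paired genes was also lower in replicate 2, 35.3 against 49.2. Counts over all genes are not given here, so these do not set genes with long contigs apart. Col6a4, a collagen VI chain, had 280 TPM in replicate 1 and 0.29 in replicate 2, from 53535 and 57 counts. Ramp3, a receptor activity-modifying protein, had 300 and 0.94 TPM, and Scube1, a secreted protein, 76.2 and 0.19. Chrdl2, a BMP antagonist, and the noncoding RNA Foxl2os had 34.7 and 49.0 TPM in replicate 1 and 3 counts each in replicate 2, giving ratios of 0.00235 (0.000485 to 0.00689) and 0.00124 (0.000255 to 0.00362). Their contigs had a score of 0, as every long contig did, so the score does not set them apart. Col6a4 had 9667 bases at a level of 12.1 (mm9, chr9:105902533-105912199), Ramp3 9402 at 10.8, and Foxl2os 8781 at 6.13. So some long contigs were paired with genes whose counts came almost wholly from 1 library. In the other direction, Timp4, a metalloproteinase inhibitor of fat, had 30.0 and 339 TPM, a ratio of 17.6 (16.7 to 18.7), with a contig of 5461 bases that only received junctions. Lep, the leptin gene, had a contig of 5716 bases at a level of 19.1 and a ratio of 17.2 (16.8 to 17.5). Ighm, the immunoglobulin mu chain, had one of 7540 bases at 66.8 and a ratio of 15.3 (14.8 to 15.8), Prelp, a matrix proteoglycan, one of 9648 bases and a ratio of 10.6, and Npr3, the clearance receptor of natriuretic peptides, one of 7940 bases and a ratio of 10.3.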

How the data were processed

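RNA of 2 libraries of 1 group was measured. The deposited contig table, on mm9 and pooled over both libraries, holds for each contig a score, its signal level and its read bases; the deposited junction table holds a read count and a score for each junction. Read bases per base divided by the level was 20.9 throughout. The deposited gene tables, on mm10, give an expected count, TPM and FPKM per gene, by a program not named in the sources used here. Estimated counts were rounded and scaled with TMM factors from edgeR 4.0.16 (R 4.3.3), 1.20 for replicate 1 and 0.837 for replicate 2. Ratios have exact Clopper-Pearson 95% intervals.

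Junctions of at least 10 reads and a score of 0.1 or lower were placed in contigs, allowing 10 bases at a contig's edge. A contig was paired with a gene of GENCODE M21 through 2 introns in a row of matching lengths; no coordinate was converted between builds. The pairing was tested on simulated data. Reads that match several genes were divided by the submitters' program, so near-identical copies are uncertain. With 1 group, no comparison of conditions and no p-value was possible.

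The members and gene lists were chosen with earlier results of these data known. Named were the 10 longest contigs, the 5 of highest level, most read bases and lowest level, the 3 nearest each limit, the longest on each of X, Y and M, and genes paired with these, together with the 10 genes of most contig bases and of highest TPM, the 5 highest and lowest replicate ratios and paired list members; others, such as microRNA hosts and last exons, were chosen after their values were seen. One item that this rule names is not reported here. Alternatives covered the limits on length and score, joining of neighbours, junction and overlap rules, the pairing rule, units and scaling.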

Additional observations from a re-analysis of the deposited data

How the results depend on the processing

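A total of 56 alternative values were computed for 12 results. Of these, 34 stayed within 1.5 times (counts), the 95% binomial interval (shares, medians of contigs) or 1 SD of the replicates (TPM), and 22 moved. Some of the 34 could not have moved. Every long contig has a score of 0, so score limits of 0.05 and 0.01 chose the same contigs. The TPM band came from the spread of the same replicates, so leaving 1 out could hardly pass it. The number of long contigs, 2012, became 3710, 1093, 474 and 121 at length limits of 4000, 6000, 7500 and 10000 bases, and 4399 when neighbours up to 100 bases apart were joined. Their median level became 5.625, 7.20, 7.895 and 9.98 at those limits, and the mean was 17.96. For shorter contigs the median level became 0.163 with any score and 1.17 from 1000 to 5000 bases, and the mean was 2.72; all stayed below the long contigs' value. The plus share was 52.9% from 10000 bases on. With junctions of at least 50 reads, 63.9% of long contigs held a whole intron and 17.3% had no junction end; with introns paired with a gene, 65.7% held one. A contig of the other strand overlapped 28.1% by at least 100 bases, 3.08% by at least 50% of their length, and 56.6% with any score. With total count scaling, 219 paired genes were higher in replicate 1 and 110 in replicate 2. The cause of these shifts was not tested. Paired introns, junction reads of at least 10% of contig depth (68.5% with a whole intron), total count scaling, and replicate calls by 3 introns or without adipocyte genes were chosen after seeing the data. Leaving out 1 library gave a median TPM of 35.3 without replicate 1 and 49.2 without replicate 2, and 1626 and 1639 genes at 1 TPM. Contigs pool the libraries, so no contig value could be computed without 1 of them. No paired analysis was possible because there is 1 group.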

Other observations

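After removal of every whole intron, including rare junctions, 884 of the 2012 contigs still had at least 5000 bases. Contigs with a whole intron had a median of 3117 bases outside introns, while those that only received junctions had 5813.5. The 166 without a junction end had a median length of 5709.5 bases and a median level of 1.96, against 7.84 for contigs with a whole intron.

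Contig length depends on how a gap is treated. The 4399 contigs that reach 5000 bases when neighbours up to 100 bases apart are joined stand against the 2012 described here. Of the genes reached by 3 introns in a row, 1547 of 1549 were also reached by 2. A run of 3 matching introns contains runs of 2, so this overlap was largely fixed by the rule and is no check of the pairing.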
